A study of Mus musculus with 8 samples.

Results

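The 42 genes described here make and move cholesterol and its lipoprotein carriers. They comprise 16 enzymes of sterol synthesis, 6 sterol regulators, 6 apolipoproteins, 3 lipases, 4 lipoprotein receptors, 4 lipid transporters and 3 genes of lysosomal export and sterol hydroxylation. The members were taken by name: a probe belonged to the set when its gene name on the array equalled that of a member, whatever its signal. In this way 81 of 56605 probes were found, for 41 of the 42 genes. No probe carried the name Sc4mol, which RefSeq lists as an older name of Msmo1, and the probes of Msmo1 are given with the other pathway genes.

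RNA came from whole cerebral cortex and striatum of male mice of 2 inbred strains and was hybridized with 1 mouse per array, 4 mice per strain. B6 mice were C57BL/6J, and BTBR/R mice were BTBRTF/ArtRbrc, the RIKEN subline of black and tan brachyury mice, which is studied for its autism-like behavior. The mice were aged 4 months, apart from BTBR/R replicate 1 at 6 months. No mouse was treated or carried a transgene. BTBR/R mice were supplied by the RIKEN resource center and B6 mice by a commercial breeder, and only BTBR/R mice were housed at a further facility as well. Each strain also filled its own column of the slide. Strain, origin and slide column cannot be told apart here.

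Cholesterol in the adult brain is made in place, because the lipoproteins of the blood do not pass the blood-brain barrier. Acetyl units are joined and reduced to mevalonate, which is built up to squalene, closed to lanosterol and trimmed to cholesterol, under control of the SREBP transcription factors and their partners Scap and Insig. Astrocytes load cholesterol onto apolipoprotein E through ABC transporters, neurons take the particles up through lipoprotein receptors, the Npc proteins release the cholesterol from lysosomes, and myelin holds the largest store of it.

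Detection means that the scanner software marked the spot of a probe as well above background. It held for 64.5% to 66.8% of probes in B6 mice and 53.5% to 57.2% in BTBR/R mice, with lowest detected signals of 14.5 to 17.8 and 36.1 to 47.1, respectively. No probe was saturated. Levels below are scaled signals, which are log2 processed signals after subtraction of the 75th percentile per array, and they are compared between mice for 1 probe at a time. A difference is the mean of BTBR/R minus that of B6 on this log2 scale, with the standard error (SE) and the Benjamini-Hochberg adjusted p of limma over all 56605 probes. A probe passed the test at an adjusted p under 0.05 and was called when it also differed at least 2-fold. The markers of cortical neurons and of striatal neurons, 5 genes each, were detected on all 8 arrays by their reference probes, as the tissue label requires, and none of these 10 passed the test. Among their other probes, 2 of Cux2 rose, by 0.30 and 0.39 (limma adjusted p = 0.0223 and 0.00222). A probe of Rgs9 fell by 0.16 (limma adjusted p = 0.042).

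For each gene the reference probe is its brightest probe detected on all 8 arrays. Such a probe existed for 38 members. Among these, 7 genes were higher in BTBR/R mice (Dhcr7, Srebf1, Nr1h2, Apol8, Lpl, Lrp1 and Abca1), 4 were lower (Hmgcs1, Cyp51, Sc5d and Npc1) and 27 did not pass the test. Across all 18861 reference probes detected on all 8 arrays, 28.4% passed the test, 13.9% higher and 14.4% lower, so the count of members lies near the background. The median difference of the 38 genes was 0.01, within a range of -0.60 to 1.20. Over all 18861 genes it was 0.003, with quartiles of -0.12 and 0.12. Lpl was the only member whose reference probe was called, against a background of 2.23% (1.05% higher and 1.18% lower). This count depends on which probe stands for Lpl. Its reference probe was the brightest over the 8 arrays through its BTBR/R level (mean 0.21 in B6 and 1.41 in BTBR/R mice). By B6 level alone the ENSMUST00000101463 probe of Lpl (0.70 and 0.65) would take its place, with a difference of -0.05, and no member would be called. By BTBR/R level alone the other probe of Sc5d would stand for that gene.

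**Figure D1:**
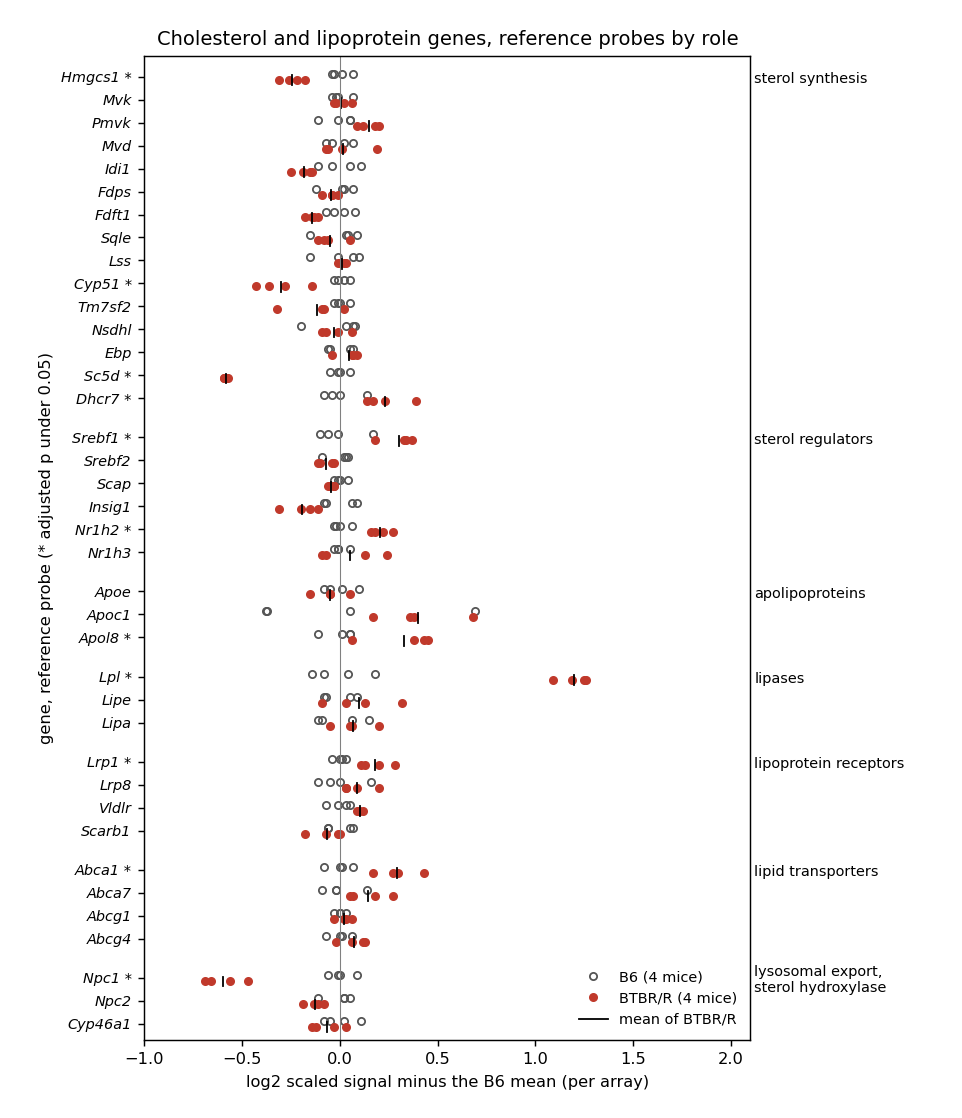
Scaled log2 signal of the reference probe of 38 genes in each of the 8 mice, set to a B6 mean of 0 (x axis), with the genes grouped by role (y axis). Open grey circles are B6 mice, filled red circles are BTBR/R mice, black ticks are BTBR/R means, and asterisks mark an adjusted p under 0.05. Most genes lie within 0.25 of 0, Lpl stands at 1.20, and Sc5d and Npc1 stand at -0.58 and -0.60.

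Sterol synthesis was measured by 27 probes of 15 genes. By reference probe 3 genes were lower in BTBR/R mice, Hmgcs1, Cyp51 and Sc5d, 1 was higher, Dhcr7, and 11 did not pass the test. The median of the 15 was -0.04, but 0.07 when arrays were scaled by spike-in probes, a setting that also moved the median of all probes detected on all 8 arrays from 0.00 to 0.12. Of the 25 probes detected on all 8 arrays, 5 were lower and 2 were higher, where the background over all such probes was 13.9% and 13%. The mean scaled signal of the 15 reference probes was 2.09 to 2.18 in B6 mice and 2.03 to 2.08 in BTBR/R mice. Since this is bulk tissue, fewer cells of a type and less RNA per cell cannot be told apart. Astrocytes and oligodendrocytes are the main sterol-producing cells, and some markers of both were lower in BTBR/R mice. Over all reference probes detected on all 8 arrays, 14.4% were lower and 13.9% higher. By reference probe, 4 of 7 astrocyte markers were lower, none was higher and 3 did not pass the test. The mean level of the 7 was 3.30 to 3.43 in B6 and 3.09 to 3.30 in BTBR/R mice. Likewise 3 of 8 myelin markers were lower, none was higher and 5 did not pass the test. The mean level of the 8 was 4.10 to 4.45 in B6 and 3.85 to 4.04 in BTBR/R mice. Another probe of the myelin gene Mbp, on NM_001025245, went the other way and rose by 0.48 (SE 0.07, limma adjusted p = 0.00143). All 15 marker genes were detected on all 8 arrays, and their part in the sterol results was not tested. Other cell types moved too. Of 3 red blood cell markers 2 were called lower, Hba-a1 (-1.18) and Alas2 (-1.36), against 1.18% of all such reference probes. The mean level of the 3 was 1.78 to 3.56 in B6 and 1.23 to 1.52 in BTBR/R mice. Of 6 endothelial and mural markers 1, Cldn5, fell by 0.51 (SE 0.12, limma adjusted p = 0.0129), with a mean level of 1.14 to 1.21 in B6 and 0.95 to 1.08 in BTBR/R mice. None of 6 choroid plexus markers passed the test. Their mean level varied widely among mice of the same strain, from -1.44 to 0.64 in B6 and from -1.03 to 0.0 in BTBR/R mice.

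The promoters of these enzymes share letters that the choice of members did not use. In the RefSeq promoter table (build GRCm38.p6, 250 bases before to 50 bases after each start), 33 of the 42 members had an entry, with Sc4mol taken as Msmo1. The CCAAT box, searched as CCAAT on both strands, was in all 13 sterol synthesis genes with an entry, in 21 of the 33 members and in none of 5 apolipoproteins. It was in 37.4% of all 32851 promoters and in 41.1% of the 27025 genes of the table. A sterol regulatory element, searched as TCACNCCAC on both strands, was found in Hmgcs1 alone among the 33 members and in 1.24% of all promoters. The E-box CACGTG, which reads the same on both strands, was in 6 members (Sc5d, Dhcr7, Scap, Insig1, Lipe and Abca1) and in 7.15% of all promoters. The LXR element of the DR4 type, searched on both strands, was in none of the 33 members and in 0.0152% of all promoters. None of these motifs contains another. A match is a run of letters only and is no evidence that a factor binds there.

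The 60 bases around the CCAAT box are shown for the 5 sterol synthesis genes that had a promoter entry and, under the name of the member, a probe past the test, which leaves out Msmo1. They are written on the strand of the gene with the box in capitals (ATTGG is the box on the other strand). Their positions are chr13:119690278-119690337 (plus strand) for Hmgcs1, chr5:4104698-4104757 (minus) for Cyp51, chr19:6067866-6067925 (minus) for Tm7sf2, chr9:42264301-42264360 (minus) for Sc5d and chr7:143830137-143830196 (plus) for Dhcr7, all in GRCm38.p6. The last line holds the sterol regulatory element of Hmgcs1, in capitals, at chr13:119690188-119690247 (plus strand).
Hmgcs1: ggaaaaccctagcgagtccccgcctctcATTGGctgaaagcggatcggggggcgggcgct
Cyp51: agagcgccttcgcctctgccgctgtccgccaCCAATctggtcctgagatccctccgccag
Tm7sf2: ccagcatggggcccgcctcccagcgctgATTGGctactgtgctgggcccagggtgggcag
Sc5d: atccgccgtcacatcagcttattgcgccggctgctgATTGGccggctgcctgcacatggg
Dhcr7: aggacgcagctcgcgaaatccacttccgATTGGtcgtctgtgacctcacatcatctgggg
Hmgcs1, sterol regulatory element: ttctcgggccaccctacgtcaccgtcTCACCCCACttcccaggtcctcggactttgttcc

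The boxes lay close to the start of the gene. The first base of the box was 45 bases upstream of it in Hmgcs1, 29 in Cyp51, 47 in Tm7sf2, 24 in Sc5d and 49 in Dhcr7, and the sterol regulatory element of Hmgcs1 began 137 bases upstream. The box was in all 13 sterol synthesis genes with a promoter entry, so it does not set apart those with a lower or a higher probe.

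The early pathway leads from acetoacetyl-CoA to mevalonate and on to the isoprene units. Hmgcs1 encodes the cytosolic HMG-CoA synthase, which makes the direct precursor of mevalonate. Its reference probe read 5.06, 5.16, 5.05 and 5.10 in B6 mice and 4.83, 4.78, 4.91 and 4.87 in BTBR/R mice, with every BTBR/R mouse below every B6 mouse. Hmgcs1 fell by 0.24 (SE 0.05, 1.18-fold, limma adjusted p = 0.00665), a result that did not pass the test under spike-in scaling (-0.13). A second probe, on the cDNA AK078743 and 6.64 kb further upstream, read -3.58, -3.33, -2.89 and -3.22 in B6 mice, while none of the BTBR/R arrays detected it. The BTBR/R level was lower by at least 1.37-fold (limma adjusted p = 0.00646). For this bound each array of the dimmer strain was given its lowest detected signal, or that of the probe itself where higher, and the averages of both strains were compared. Its fitted difference was -1.67, but only -0.36 with normexp background correction, where it was no longer called.

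The kinases and the decarboxylase that follow differed little. Mvk, the mevalonate kinase, differed by 0.01 (SE 0.05, limma adjusted p = 0.896) and Pmvk, the phosphomevalonate kinase, by 0.15 (SE 0.06, limma adjusted p = 0.0656). Mvd, which forms isopentenyl diphosphate, differed by 0.02 (SE 0.07). Idi1, the isomerase of this product, read 1.86, 2.08, 2.02 and 1.93 in B6 mice and 1.78, 1.82, 1.83 and 1.72 in BTBR/R mice. The strains did not overlap for Idi1, but its difference of -0.18 (SE 0.06) had a limma adjusted p of 0.0503. Fdps, which makes farnesyl diphosphate, differed by -0.04 (SE 0.05).

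Squalene is formed and closed by 3 enzymes. Fdft1, the squalene synthase, had a probe that read 2.20, 2.18, 2.13 and 2.23 in B6 mice and 2.05, 1.97, 1.97 and 2.09 in BTBR/R mice, without overlap. It fell by 0.16 (SE 0.05, 1.12-fold, limma adjusted p = 0.0344), but differed by only -0.05 under spike-in scaling, where it did not pass the test. The reference probe of Fdft1 had a difference of -0.14 (SE 0.05, limma adjusted p = 0.0543), and the result of the first probe was lost without any single mouse other than B6 replicate 3 or BTBR/R replicate 4. Sqle, the squalene epoxidase and a rate-limiting step, differed by -0.05 (SE 0.07). Lss, which closes the ring to lanosterol, differed by 0.01 (SE 0.06), and its other probes by -0.10 and 0.05.

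Lanosterol is turned into cholesterol by a chain of demethylases, reductases and an isomerase. Cyp51, the lanosterol demethylase, is measured by a reference probe at chr5:4082122-4082181 (mm9), which read 1.47, 1.44, 1.5 and 1.42 in B6 mice and 1.17, 1.31, 1.09 and 1.02 in BTBR/R mice. Every BTBR/R mouse was below every B6 mouse, and Cyp51 fell by 0.31 (SE 0.07, 1.24-fold, limma adjusted p = 0.00981), a result that did not pass the test under spike-in scaling (-0.19). Its other probe differed by -0.19 (SE 0.10, limma adjusted p = 0.167). Tm7sf2, a sterol reductase that follows Cyp51, had a dimmer probe that read 0.05, 0.13, 0.04 and 0.01 in B6 mice and -0.06, -0.30, -0.20 and -0.19 in BTBR/R mice. That probe fell by 0.24 (SE 0.06, 1.18-fold, limma adjusted p = 0.0187), a result lost without B6 replicate 2 and under spike-in scaling (-0.13), while the reference probe of Tm7sf2 differed by -0.12 (SE 0.08, limma adjusted p = 0.27). Nsdhl, a sterol dehydrogenase, differed by -0.02 (SE 0.08), and Ebp, the sterol isomerase, by 0.05 (SE 0.05).

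Sc5d, the lathosterol oxidase that acts just before Dhcr7, was the only member with probes that passed the test in both directions among probes detected on all 8 arrays. The reference probe, on NM_172769 at chr9:42062857-42062916 (mm9), read 1.70, 1.76, 1.66 and 1.71 in B6 mice and 1.12, 1.12, 1.14 and 1.13 in BTBR/R mice. It fell by 0.58 (SE 0.04, 1.5-fold, limma adjusted p = 2.76e-05). A probe 2.77 kb further along the gene, on XM_011242485 at chr9:42060087-42060146 (mm9), read 0.28, 0.44, 0.37 and 0.39 in B6 mice and 1.33, 1.46, 1.33 and 1.36 in BTBR/R mice. It rose by 1.0 (SE 0.06, 2.0-fold, limma adjusted p = 2.76e-05). The strains were fully separated by both probes, in opposite directions. Strain variants under the probes were not analysed here, for Sc5d or for any other gene, so unequal values of probes of 1 gene cannot be read as unequal transcripts. The second probe lay at the 2-fold limit and dropped to 0.97 without B6 replicate 1 or BTBR/R replicate 2 and to 0.90 with normexp background correction, and it was also just under 2-fold with scaling by the median or by detected probes, still past the adjusted p in each case.

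Dhcr7, which carries out the last reduction of this branch, read -0.64, -0.50, -0.72 and -0.68 in B6 mice and -0.47, -0.25, -0.41 and -0.50 in BTBR/R mice. The lowest BTBR/R mouse stood next to the highest B6 mouse. Dhcr7 rose by 0.23 (SE 0.08, 1.17-fold, limma adjusted p = 0.0464), a result lost when any single mouse other than B6 replicate 2 was left out, with normexp, with scaling by the median or by detected probes, and with the methods' t-test.

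**Figure D2:**
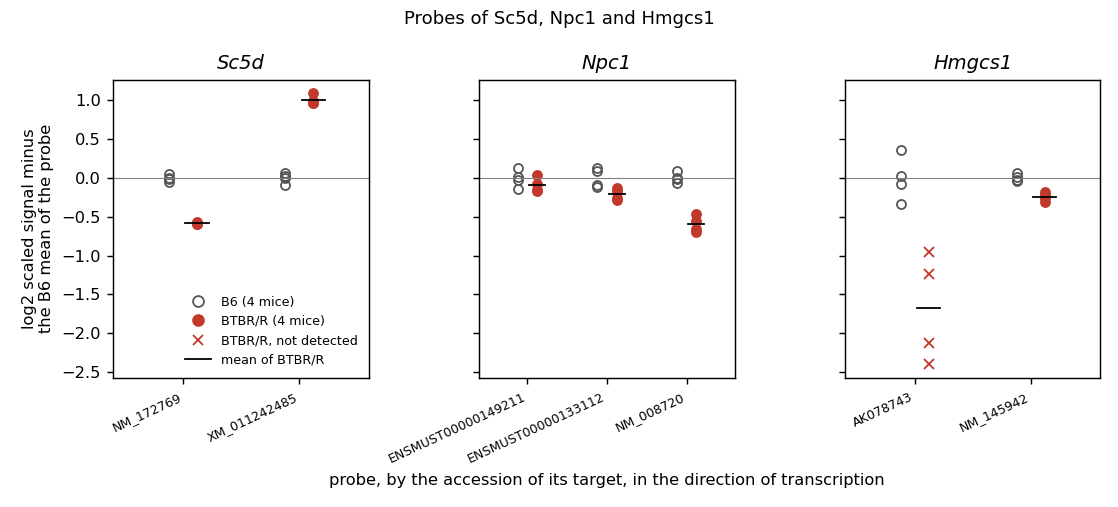
Scaled log2 signal of each probe of Sc5d, Npc1 and Hmgcs1 that was detected on every B6 array, set to its B6 mean (y axis), by the accession the probe was designed on, in the direction of transcription (x axis). Open grey circles are B6 mice, filled red circles are BTBR/R mice, crosses are BTBR/R mice without detection and black bars are BTBR/R means. The probes of Sc5d stand at -0.58 and 1.0, those of Npc1 between -0.60 and -0.08, and the undetected Hmgcs1 probe is a bound.

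Of the 6 sterol regulators, 2 were higher and 4 did not pass the test. Srebf1 encodes the SREBP-1 transcription factors, best known for driving fatty acid synthesis. It read 3.58, 3.31, 3.40 and 3.35 in B6 mice and 3.74, 3.75, 3.78 and 3.59 in BTBR/R mice, so that the lowest BTBR/R mouse was just above the highest B6 mouse. Srebf1 rose by 0.30 (SE 0.07, 1.23-fold, limma adjusted p = 0.0153). Nr1h2 encodes the oxysterol receptor LXR beta, an activator of Srebf1 and of Abca1. Its reference probe read 3.42, 3.48, 3.40 and 3.39 in B6 mice and 3.64, 3.69, 3.58 and 3.60 in BTBR/R mice, without overlap, and rose by 0.21 (SE 0.05, 1.15-fold, limma adjusted p = 0.0109).

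The other regulators gave smaller values. Srebf2, the main activator of the sterol synthesis genes, differed by -0.07 (SE 0.05, limma adjusted p = 0.298). Scap, which escorts SREBP to the Golgi, differed by -0.04 (SE 0.04). Insig1, which holds Scap back when sterols are plentiful and is itself induced by SREBP, differed by -0.19 (SE 0.07, limma adjusted p = 0.0535). Nr1h3, the gene of LXR alpha, differed by 0.05 (SE 0.08).

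Apolipoproteins were the least well measured group, with 4 of 10 probes detected on all 8 arrays and 5 detected on none. Apoe, the main apolipoprotein of the brain, read 7.75, 7.60, 7.66 and 7.57 in B6 mice and 7.60, 7.70, 7.60 and 7.50 in BTBR/R mice. The strains overlapped, and Apoe differed by -0.04 (SE 0.06, limma adjusted p = 0.625) by this probe and by -0.07 (SE 0.06, limma adjusted p = 0.422) by the other. Apoc1, a small exchangeable apolipoprotein next to Apoe, varied most among B6 mice of any reference probe in the set, at 0.42, -0.65, -0.64 and -0.22, against 0.41, 0.09, 0.11 and -0.10 in BTBR/R mice. Its difference of 0.40 (SE 0.25, limma adjusted p = 0.246) was smaller than the range among B6 mice.

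Apol8, of the apolipoprotein L family, read -1.25, -1.37, -1.21 and -1.21 in B6 mice and -0.88, -1.20, -0.83 and -0.81 in BTBR/R mice. BTBR/R replicate 2 stood beside the B6 mice. Apol8 rose by 0.33 (SE 0.10, 1.26-fold, limma adjusted p = 0.0315), a result that was lost when any single mouse other than BTBR/R replicate 2 was left out, with quantile normalization and with scaling by the median. Apoc2, the activator of lipoprotein lipase, was detected on every B6 array at -4.15, -3.72, -3.92 and -4.48 but on none of the BTBR/R arrays. It was called with a fitted difference of -1.01 (limma adjusted p = 0.00246), but its B6 signal was below the BTBR/R detection limit, so no fold can be given, and the call was lost with normexp background correction (-0.26). It was also lost with quantile normalization, with spike-in scaling, and without B6 replicate 2 or 3 or BTBR/R replicate 1, 3 or 4, at -1.0 to -0.90. Apoa1 and Apob, the apolipoproteins of plasma HDL and LDL, were detected on no array.

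Among the lipases, Lpl differed most between the strains by reference probe, and the reference probes of Lipe and Lipa did not pass the test. Lpl encodes lipoprotein lipase, which hydrolyzes the triglycerides of lipoproteins and is made in the brain by neurons and microglia. It had 6 probes, more than any other member, all detected on all 8 arrays and spread over 24.73 kb of chromosome 8. Of these, 5 were higher in BTBR/R mice and 1 did not pass the test. No annotation of build mm9 was used here, so the probes are given by position and by the accession in the array design, and whether strain variants lie under them was not analysed here. The sequences of the first 5 probes, in the direction of transcription, are shown because these probes read the same gene with different results. Their mm9 positions on the plus strand are chr8:71405538-71405597, chr8:71408343-71408402, chr8:71413311-71413370, chr8:71419652-71419711 and chr8:71425050-71425109.
AK154419: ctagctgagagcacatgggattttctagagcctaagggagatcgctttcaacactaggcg
AK170106: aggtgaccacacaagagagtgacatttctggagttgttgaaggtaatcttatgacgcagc
ENSMUST00000101463: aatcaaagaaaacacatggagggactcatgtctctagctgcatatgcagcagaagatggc
NM_008509, first: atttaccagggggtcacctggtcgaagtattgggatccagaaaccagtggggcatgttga
NM_008509, second: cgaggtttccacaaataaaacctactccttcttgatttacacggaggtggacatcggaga

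The reference probe of Lpl lies at the 3′ end of NM_008509, at chr8:71430267-71430326. It read 0.07, 0.39, 0.13 and 0.25 in B6 mice and 1.40, 1.30, 1.47 and 1.46 in BTBR/R mice. The strains were far apart, and Lpl rose by 1.20 (SE 0.08, 2.29-fold, limma adjusted p = 2.76e-05). The other probes on the same transcript rose less. The first read -3.57, -3.38, -3.67 and -3.46 in B6 mice and -2.71, -3.05, -2.79 and -2.64 in BTBR/R mice, a rise of 0.72 (SE 0.11, limma adjusted p = 0.00123). The second read -1.51, -1.38, -1.52 and -1.55 in B6 mice and -0.84, -1.37, -0.93 and -0.96 in BTBR/R mice, a rise of 0.47 (SE 0.12, limma adjusted p = 0.0172). In the second, BTBR/R replicate 2 stood just above the highest B6 mouse.

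Upstream of these, the cDNA probe AK154419 gave the largest difference of any member probe detected on all 8 arrays. It read -3.92, -3.45, -3.83 and -3.74 in B6 mice and -1.34, -1.37, -1.05 and -1.31 in BTBR/R mice. It rose by 2.47 (SE 0.12, 5.53-fold, limma adjusted p = 1.79e-05), a value that fell to 1.58 with normexp background correction and was still called. The probe AK170106, 2.81 kb further on, read -3.96, -3.70, -4.01 and -4.15 in B6 mice and -3.13, -2.91, -2.79 and -3.22 in BTBR/R mice. It rose by 0.94 (SE 0.13, 1.92-fold, limma adjusted p = 0.000819). Between these and the NM_008509 probes, ENSMUST00000101463 read 0.74, 0.70, 0.66 and 0.71 in B6 mice and 0.76, 0.44, 0.68 and 0.73 in BTBR/R mice. There the strains overlapped, and the difference was -0.05 (SE 0.08, limma adjusted p = 0.627).

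The higher Lpl signal was present in every BTBR/R mouse for all 5 of these probes. Of the reference probes of 8 microglia markers, all detected on all 8 arrays, 5 were lower, 1 was higher and 2 did not pass the test. Over all such reference probes 14.4% were lower and 13.9% higher. The mean level of the 8 markers was 2.05 to 2.09 in B6 and 1.58 to 1.73 in BTBR/R mice. Cx3cr1, counted as lower at -0.71 (SE 0.07), had another probe that rose by 1.71 (SE 0.04, 3.27-fold, limma adjusted p = 7.59e-07). Adipocyte markers, whose tissue is the classical source of Lpl, were at background, with 7 of 8 probes detected on no array and 1 on a single B6 array. The part of microglia in the Lpl difference was not tested.

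**Figure D3:**
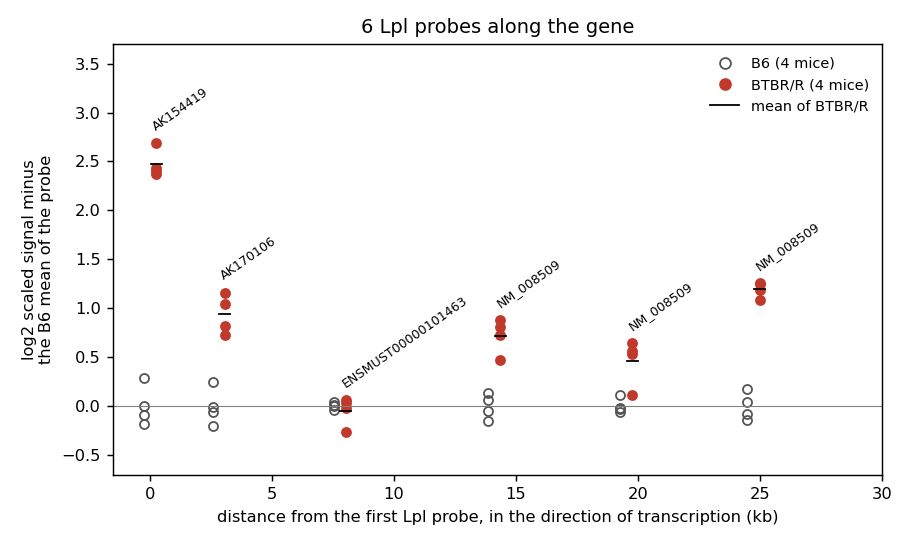
Scaled log2 signal of 6 Lpl probes in each of the 8 mice, set to the B6 mean of each probe (y axis), by distance in kb from the first probe in the direction of transcription (x axis). Open grey circles are B6 mice, filled red circles are BTBR/R mice and black bars are BTBR/R means. The BTBR/R means stand at 2.47, 0.94, -0.05, 0.72, 0.47 and 1.20 from left to right.

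Lipe, the hormone-sensitive lipase that also hydrolyzes cholesteryl esters, differed by 0.10 (SE 0.10, limma adjusted p = 0.448) by its reference probe AK019846. Its NM_010719 probe was detected in B6 mice alone, at -4.04, -4.23, -4.24 and -4.04. Its fitted difference of -0.52 passed the test (limma adjusted p = 0.0244), but these values lie below what the BTBR/R arrays could detect, and no fold or direction is given. Lipa, the lysosomal acid lipase that frees cholesterol from its esters, differed by 0.06 (SE 0.08, limma adjusted p = 0.589).

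Of the 4 lipoprotein receptors, Lrp1 was higher and 3 did not pass the test. Lrp1, a large endocytic receptor for apolipoprotein E, read 2.93, 2.86, 2.90 and 2.91 in B6 mice and 3.03, 3.18, 3.01 and 3.1 in BTBR/R mice. The strains did not overlap, and Lrp1 rose by 0.18 (SE 0.05, 1.13-fold, limma adjusted p = 0.0296). This result was lost without B6 replicate 2, 3 or 4 and without BTBR/R replicate 2 or 4, as well as with scaling by the median, and the other Lrp1 probe detected on all 8 arrays differed by 0.19 (SE 0.10, limma adjusted p = 0.18). Lrp8 and Vldlr, which bind both apolipoprotein E and reelin, differed by 0.09 (SE 0.07) and 0.10 (SE 0.04, limma adjusted p = 0.102). Scarb1, the HDL receptor, differed by -0.07 (SE 0.06). Of the dim receptor probes, 1 of Lrp8 was detected on 4 B6 and 3 BTBR/R arrays, another of Lrp8 in B6 mice alone, and 1 of Lrp1 nowhere, and none of these passed the test.

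Among the lipid transporters, Abca1 was higher and the other 3 did not pass the test. Abca1 passes cholesterol and phospholipid to lipid-poor apolipoproteins. Its reference probe read -0.27, -0.42, -0.34 and -0.33 in B6 mice and 0.09, -0.17, -0.04 and -0.07 in BTBR/R mice, with every BTBR/R mouse above every B6 mouse. Abca1 rose by 0.29 (SE 0.07, 1.22-fold, limma adjusted p = 0.0111). Abca7, a related transporter and an Alzheimer disease risk gene in humans, differed by 0.14 (SE 0.07, limma adjusted p = 0.168) and by 0.15 (SE 0.06, limma adjusted p = 0.0733) in its probes. Abcg1 and Abcg4, which load cholesterol onto HDL-like particles, differed by 0.02 (SE 0.04) and 0.07 (SE 0.05). The other Abca1 probe was detected on 2 B6 arrays and did not pass the test.

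Npc1 had the most negative difference of any reference probe of the set detected on all 8 arrays. It encodes the membrane protein that carries cholesterol out of lysosomes, and its loss causes Niemann-Pick type C disease. The NM_008720 probe read 2.11, 2.02, 1.96 and 2.01 in B6 mice and 1.46, 1.55, 1.33 and 1.36 in BTBR/R mice. The strains were well separated, and Npc1 fell by 0.60 (SE 0.07, 1.52-fold, limma adjusted p = 0.000211). The reference probe lies 29.69 kb from the first Npc1 probe. Of the upstream probes, those on ENSMUST00000133112 and ENSMUST00000149211 differed by -0.21 (SE 0.07, limma adjusted p = 0.0564) and -0.08 (SE 0.07, limma adjusted p = 0.412). Npc2, the soluble partner of Npc1, differed by -0.12 (SE 0.05, limma adjusted p = 0.111). Cyp46a1, the neuronal hydroxylase that converts cholesterol to a form that can leave the brain, differed by -0.06 (SE 0.06, limma adjusted p = 0.47).

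In most genes the probes gave like values. Of 21 genes with more than 1 probe detected on all 8 arrays, 18 had probes within 0.25 of each other. The others were Lpl, with a range of 2.52, Sc5d, with a range of 1.58, and Npc1, with a range of 0.52. These were also the 3 genes with the largest differences by reference probe. Over all 65 member probes detected on all 8 arrays, 12 were higher, 6 were lower and 47 did not pass the test, against a background of 26.9%. Of the 12 higher probes 5 belong to Lpl. Called probes detected on all 8 arrays numbered 3, a pair of Lpl probes and the second Sc5d probe, against a background of 2.2% (1.04% higher and 1.16% lower).

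Probes without detection behaved differently. The count of called member probes over all 81 was 12, against a background of 22.4% (20.2% higher and 2.27% lower). Of the 9 member probes detected on no array 6 were called higher, those of Apoa1 and Apob and single probes of Nr1h2, Lipe and Npc1, and a Sqle probe detected on BTBR/R replicate 1 only was called too. Signals on the B6 arrays that did not detect these probes read lower than those on the BTBR/R arrays, and these 7 calls give no direction of expression. Probes detected on every array of 1 strain and none of the other were called for Hmgcs1 and Apoc2 alone, and of these a bound could be given for Hmgcs1 but not for Apoc2.

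**Figure D4:**
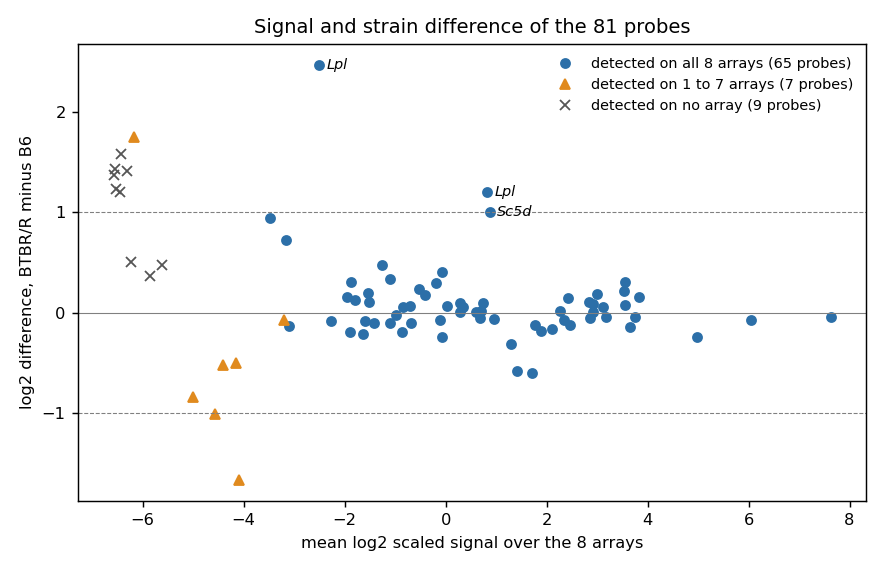
Mean scaled log2 signal over the 8 arrays (x axis) and log2 difference of BTBR/R minus B6 (y axis) of the 81 member probes, by detection: blue circles on all 8 arrays, orange triangles on 1 to 7 arrays, grey crosses on no array. Dashed lines mark a 2-fold difference. The 65 detected probes lie mostly near 0, with Lpl and Sc5d labelled, and the 9 undetected probes all lie above 0.

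A list of 60 further genes of the same pathways, with 131 probes, gave the setting. Of 46 with a reference probe detected on all 8 arrays, 5 were higher, 6 were lower and 35 did not pass the test, with a median of -0.01, again against a background of 28.4%. Of the 85 probes detected on all 8 arrays, 1 was called higher and 2 were called lower, near the background of 2.2% (1.04% higher and 1.16% lower). These called probes belonged to 3 genes. Osbpl10, of the oxysterol-binding protein family, read -0.23, -0.08, -0.10 and -0.13 in B6 mice and -2.71, -2.77, -3.07 and -2.79 in BTBR/R mice by its ENSMUST00000182363 probe. This probe fell by 2.70 (SE 0.09, 6.51-fold, limma adjusted p = 2.84e-06), while the NM_148958 probe of Osbpl10 rose by 0.51 (SE 0.06, limma adjusted p = 0.000323). Cyp39a1, an oxysterol hydroxylase of bile acid synthesis, read -0.71, -0.62, -0.84 and -0.52 in B6 mice and -2.07, -2.17, -1.84 and -1.83 in BTBR/R mice and fell by 1.30 (SE 0.10, 2.47-fold, limma adjusted p = 3.36e-05). Mttp, which loads lipid onto Apob, read -3.36, -3.16, -2.91 and -3.27 in B6 mice and -2.21, -2.38, -2.36 and -1.35 in BTBR/R mice and rose by 1.10 (SE 0.24, 2.14-fold, limma adjusted p = 0.00922). BTBR/R replicate 4 stood above the other BTBR/R mice, and without it Mttp differed by 0.86, under 2-fold, as it did with normexp background correction (0.77), past the adjusted p in both.

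By role, the 5 other sterol synthesis genes had 14 probes detected on all 8 arrays, of which 8 were lower, 1 was higher and 5 did not pass the test, against a background of 13.9% lower and 13% higher over all such probes. The probes share genes, and 5 of the lower ones were of Ggps1, which makes geranylgeranyl diphosphate. Under spike-in scaling none of these 5 passed the test. Of 7 other regulators by reference probe 1 was higher and 1 lower, of 6 other apolipoproteins none was higher and 1 lower, and of 6 other lipoprotein enzymes 1 was higher and 1 lower. Of 10 other receptor genes 1 was higher and none lower, and of 12 genes of sterol transport and storage 1 was higher and 2 were lower.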

How the data were processed

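RNA from cortex and striatum of 4 B6 and 4 BTBR/R mice was measured on Agilent 1-colour arrays on 1 slide, scanned once. The authors deposited spot intensities from Feature Extraction 10.7.3.1 (processed signal: background subtracted, detrended, low values replaced by a surrogate). They also deposited log2 values from GeneSpring, which differed from the log2 of this signal by 1 fixed amount in each array. Samples were grouped by the strain in the labels.

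Control spots and 36 to 52 outlier spots per array were left out, spots of a probe were averaged, and the log2 intensity minus the 75th percentile of its array was compared with limma 3.58.1 (lmFit, eBayes) in R 4.3.3 over 56605 probes. Calls needed an adjusted p under 0.05 and 2-fold. With 4 mice per strain, the number of arrays limits the precision. Tables and plots were made with numpy 2.4.6, pandas 2.3.3 and matplotlib 3.10.9 under Python 3.11.15. Data for this comparison were also simulated over 56605 probes. There 98 of 100 probes changed by 1.5 on the log2 scale and 96 of 100 changed by 2 were called, with 7 unchanged probes. These counts hold for the simulated noise only. In the measured data, 6 of 9 member probes detected on no array were called higher. Neither the recovery nor the 7 can therefore be carried over to probes without detection.

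Every member with a probe was named by its reference probe, as was every member probe that was detected on all 8 arrays and past the adjusted p, or detected on all arrays of 1 strain and called. Of the other pathway genes, called probes detected on all 8 arrays were named. The members and lists were chosen with earlier results of these data known. Acat2 from the pathway list and Drd1a and Hbb-bs from the marker lists are not gene names on the array.

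Same-numbered mice of the 2 strains are different animals, and the correlations of their deviations from the strain means were 0.0028, -0.0699, -0.0448 and 0.156, so the numbers do not pair them. Alternatives tried were the log2 values of the authors, normexp (offset 50), quantiles, 3 other scalings (median, 7 spike-in probes, upper quartile over detected probes), 2 filters on dim probes, the methods' t-test, limma with trend and robust options, a replicate block, and leaving out each mouse. Promoters were taken from RefSeq (GRCm38.p6), probe names, sequences and mm9 positions from the array files.

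Some genes of the pathway list are counted but not reported here by name.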

Additional observations from a re-analysis of the deposited data

Results flagged for a closer look

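In 5 of 130 groups of 4 mice, 1 mouse stood far from the other 3 of its strain. By chance about 1 in 20 groups stand out in this way. B6 replicate 3 was involved in 3 of them. It read -0.47 for a dim probe of Lss, where the other B6 mice read -1.35 to -1.20. It read 0.11 for a dimmer probe of Ebp, against 0.32 to 0.34. It read 2.29 for the reference probe of Srebf2, against 2.40 to 2.42. In BTBR/R mice, replicate 1, the 6-month-old mouse, read -1.14 for a dim probe of Nr1h2, against -1.93 to -1.91, and replicate 2 read -1.20 for Apol8, against -0.88 to -0.81. Apol8 kept its result without this mouse and lost it without any other. None of the other 4 probes passed the test.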

How the results depend on the processing

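Called probes over the whole array numbered 12697, and 563 with normexp background correction, 2200 with quantile normalization, 1558 when only probes detected on every array of a strain were fitted and 631 when only probes detected on all 8 arrays were. For the member probes, 12 calls became 2, 4, 5 and 3. The 3 calls among member probes detected on all 8 arrays and the 18 such probes past the adjusted p stayed within 1.5 times under every setting. The median of the sterol synthesis genes, -0.04, was -0.09 with normexp, -0.07 with median scaling and 0.07 with spike-in scaling, and the median of all members, 0.01, was -0.01 with median scaling and 0.13 with spike-in scaling, which moved the median of all probes detected on all 8 arrays to 0.12.

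Leaving out single mice gave 11792 to 12929 calls over the array, 10 to 12 among members, 2 to 4 among members detected on all 8 arrays, 14 to 19 past the adjusted p, and medians of -0.09 (without B6 replicate 3) to -0.03 and 0.00 to 0.03. The replicate block gave 11693, 11, 3 and 13 and took Hmgcs1, Fdft1, Tm7sf2, Lrp1 and the 0.47 Lpl probe out of the test. Of 20 named probes none changed direction under any setting, and between 15 and 20 kept their result. Where a probe was too dim to be detected in BTBR/R mice, a direction is given only if a bound could be computed. The cause of these moves was not tested.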

Other observations

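Genes of the same pathways outside the set, named here after their values were seen, moved by modest amounts. Msmo1, a sterol demethylase, differed by -0.05 (SE 0.07) by its reference probe and fell by 0.25 (SE 0.06, limma adjusted p = 0.0179) by a dimmer one, a result lost under spike-in scaling (-0.14) and with the replicate block. The 6 probes of Ggps1 differed by -0.34 to -0.15, and 5 of them passed the test.

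Sorl1, a sorting receptor, split by probe in the way Sc5d did. Its NM_011436 probe rose by 0.71 (SE 0.05, limma adjusted p = 2.76e-05) and its ENSMUST00000060989 probe fell by 0.68 (SE 0.07, limma adjusted p = 0.000128). Mylip, a ubiquitin ligase induced by LXR, rose by 0.38 (SE 0.08, limma adjusted p = 0.00813).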
